A study of Caenorhabditis elegans with 2 samples.

Results

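On the X chromosome of the nematode Caenorhabditis elegans, 1006 candidate regions of a ranked peak list lay away from the genes of small structural RNAs. They were chosen by position alone: the summit had to be on X and over 500 bp from any annotated tRNA, snoRNA, snRNA or spliced leader RNA gene. These 1006 are part of 1206 candidates on X and of 9477 in the whole list. They came from chromatin immunoprecipitation followed by sequencing (ChIP-seq), in which DNA bound to, or near, a tagged protein is recovered and sequenced. Each region carries a summit, a signal value and an irreproducible discovery rate (IDR). The IDR measures how poorly a region's rank holds up between repeated rankings. Each replicate's own list has IDRs too, so an IDR here need not compare the 2 biological replicates. The tagged protein is Y53F4B.3, whose gene the annotation calls pole-4 (WBGene00013150). Strain RW12270 carries TY1, EGFP and 3xFLAG tags at that gene on chromosome II, inserted by CRISPR, and an antibody against GFP was used on sonicated whole worms. All material came from this 1 strain: young adults aged 64 h, synchronised by bleaching and starvation of first-stage larvae, with 2 biological replicates in 1 group and no sex recorded. Worms without the tag and the control library were not analysed here, so no value below is a difference from a control, and binding of the protein itself was not tested.

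pole-4 takes its name from a small accessory subunit, a histone-fold protein, of DNA polymerase epsilon. This enzyme copies the leading strand during DNA replication. The worm X chromosome differs from the autosomes in several known ways. Few of its genes are active in the germ line, which makes up much of an adult hermaphrodite, and in hermaphrodite somatic cells a condensin-containing dosage compensation complex loads at recruitment sites on X and spreads along it. The X is also rich in tRNA genes, and the distance rule leaves those, and the RNA polymerase III machinery known to sit on them, outside the regions described here.

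"Listed" below means present on the authors' thresholded list, and "passing" means an IDR of 0.01 or less, whether listed or not. Both states could be read from a larger pair of lists that drew on both replicates, a conservative pair that did likewise, and a pair for each replicate. A passing region need not have a candidate in both replicates. Signal values are the authors' scores and have no scale shared between lists. Read depth is unknown, so the exact binomial (Clopper-Pearson) 95% intervals given with shares cover counting error only. Positions are on assembly ce11, counted from 1.

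Of the 1006 regions, 13 were listed, a share of 1.29% (95% interval 0.690 to 2.20), where the share over all candidates of the list was 4.91%. Autosomal candidates chosen by the same distance rule were listed more often, 279 of 7839 or 3.56% (3.16 to 3.99), and the intervals do not overlap. The difference was not tested, because neighbouring regions are not independent. By IDR alone, 55 X regions passed, 5.47% (4.14 to 7.06), beside 385 autosomal ones, 4.91% (4.44 to 5.41), and 6.48% of all candidates. The latter pair of intervals overlaps. Of the 55 passing regions, 42 were not listed, 76.4% (63.0 to 86.8), against 106 of 385 on the autosomes, 27.5% (23.1 to 32.3), and 0 of the 56 passing X candidates near small RNA genes, which allows a share of up to 6.38%. Each thresholded list drew on 1 input file that the ranked lists did not use, and its nature is not stated in the sources used here. The other 951 regions did not pass.

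**Figure D1:**
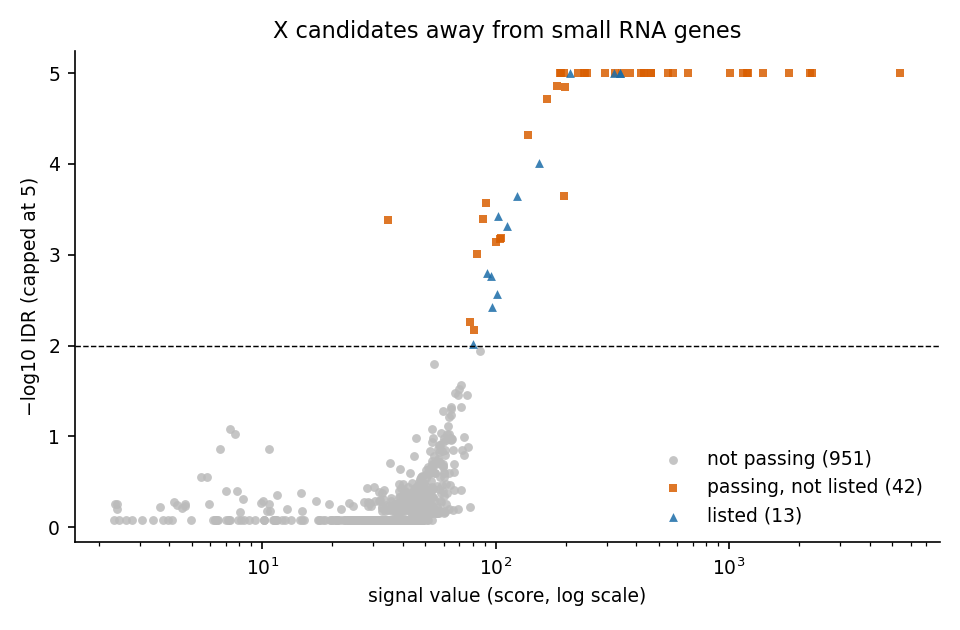
Signal value (x axis, log scale) against −log10 of the IDR (y axis, capped at 5) for the 1006 X regions. Each point is a region, and the dashed line marks an IDR of 0.01. The 42 passing regions that were not listed reach a signal of 5424, while the 13 listed ones end at 340.

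The passing regions that were left off the list held the highest signals of the 1006 regions. Their median signal was 270, with a range from 34.5 to 5424, beside a median of 111.9 and a range from 80.3 to 340 for the 13 listed regions. Of the 42, 19 exceeded the highest listed region. The 951 that did not pass had a median of 40.7 and none above 86.0. Over all 1006 regions the median signal was 41.3 (quartiles 35.96 and 48.4), close to the 42.2 of the autosomal candidates. The autosomes showed the same order of signals. Their 106 unlisted passing candidates had a median of 281 and a highest value of 4825, and their 279 listed ones 105.5 and 682.

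Sequence separated these groups in a way the rule did not use. The repeat share is the percentage of 24-base words in a window reaching 130 bp to each side of a summit for which the genome holds at least 5 copies, and a region is called repeated here when that share is over 50%. Repeated sequence held 39 of the 42 passing regions that were not listed, 8 of the 13 listed regions and 34 of the 951 that did not pass, which is 3.58%. This order was not particular to X. On the autosomes the same sets were repeated in 102 of 106 (96.2%), 74 of 279 (26.5%) and 232 of 7454 (3.11%). A repeat share of exactly 0, meaning no such word, was found for 825 of the 1006 regions. Only 2 of these 825 were listed, 0.242% (0.0294 to 0.873), whereas 151 of 6175 such autosomal candidates were, 2.45% (2.07 to 2.86).

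The 55 passing regions fell into 26 loci when regions less than 10000 bp apart were joined. No locus held both listed and unlisted regions: 14 held unlisted ones and 12 held listed ones. The closest approach of a listed to an unlisted passing region was 137473 bp. All 42 unlisted regions were intergenic, as were 10 of the 13 listed ones and 33.7% of the 1006 regions. On the autosomes 201 of 385 passing and 98 of 279 listed candidates were intergenic. Of the 42, 39 were tandem arrays. An array is defined here as a window matching itself at 75% or more of its bases when shifted by some period. Only 4 of the 13 listed regions met that definition. Periods were worked out for the passing regions only, so no share over all candidates can be set beside these counts.

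Grouping the passing regions by shared words, at least 24 words of 24 bases between 2 windows, gave 9 groups of more than 1 region that took in 45 of the 55. The 3 largest groups, with 11, 11 and 8 regions, repeated a unit of about 25 to 27 bp or one of double that length, and each of these 30 regions held the word ACTCTCTG. The region at chrX:11886375-11886634, of the second group, matched itself at 66.1% of its bases and so fell short of the definition of an array. The word ACTCTCTG was chosen after the sequences were seen. It occurs in 4.08% of the 1006 regions, in 1.61% of the autosomal candidates and in 0.686% of all 261 bp windows of the X chromosome, counted on both strands. The stretches below are centred on the summits of the strongest region of the first group, the strongest of the second and the strongest of the third, and capitals mark the shared word. They are shown because these groups carry most of the signal left off the list.
chrX:110357-110623, minus strand: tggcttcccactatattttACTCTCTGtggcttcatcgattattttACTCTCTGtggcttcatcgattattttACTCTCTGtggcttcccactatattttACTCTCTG
chrX:11888008-11888175, plus strand: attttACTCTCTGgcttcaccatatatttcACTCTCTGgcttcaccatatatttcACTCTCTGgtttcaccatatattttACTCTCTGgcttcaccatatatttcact
chrX:14908471-14908751, plus strand: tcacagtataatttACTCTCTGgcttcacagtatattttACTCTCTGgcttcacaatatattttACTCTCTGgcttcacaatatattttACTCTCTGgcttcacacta

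The word occurs 4 times in each of the 3 stretches. Between copies it is followed by the letters tggcttc in the first stretch and by gcttc, with 1 exception, in the others. The region at chrX:110357-110623 had the highest signal of the whole ranked list, 5424, and an IDR at the cap of 1e-05. Its summit lay 1475 bp upstream of elk-2, the nearest protein-coding start site. In the replicates' own lists its signal was 464 in replicate 1 and 4958 in replicate 2. It was listed in neither. A further 5 passing regions of the same group lay within the same 3413 bp, among them chrX:112940-113147 with a signal of 1152, whose summit was 1654 bp upstream of the F-box-family gene fbxa-221. The most copied word of this group occurs 507 times in the genome, 204 of them on X, and on all 6 chromosomes.

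The next strongest regions were also arrays. The region at chrX:5056255-5056526, of the first group, had a signal of 2269, with 157 in replicate 1 and 2305 in replicate 2. Its neighbour at chrX:5056828-5057061 had 1802, with 189 in replicate 1 and 1386 in replicate 2. Both were high in replicate 2 relative to replicate 1. Next, the region at chrX:15810954-15811152, an array with a period of 26 bp, had 2231, with 1128 in replicate 1, the highest X value there, and 1279 in replicate 2. At chrX:11785727-11785910, 1493 bp upstream of Y102F5A.1, the signal was 1394, with 453 and 977. The second group was concentrated in 2 loci, 8 regions within 7245 bp from position 10361614 and 3 within 1801 bp from position 11886375. The latter include the 2 regions assigned to Y62H9A.7, with signals of 347 and 106.

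**Figure D2:**
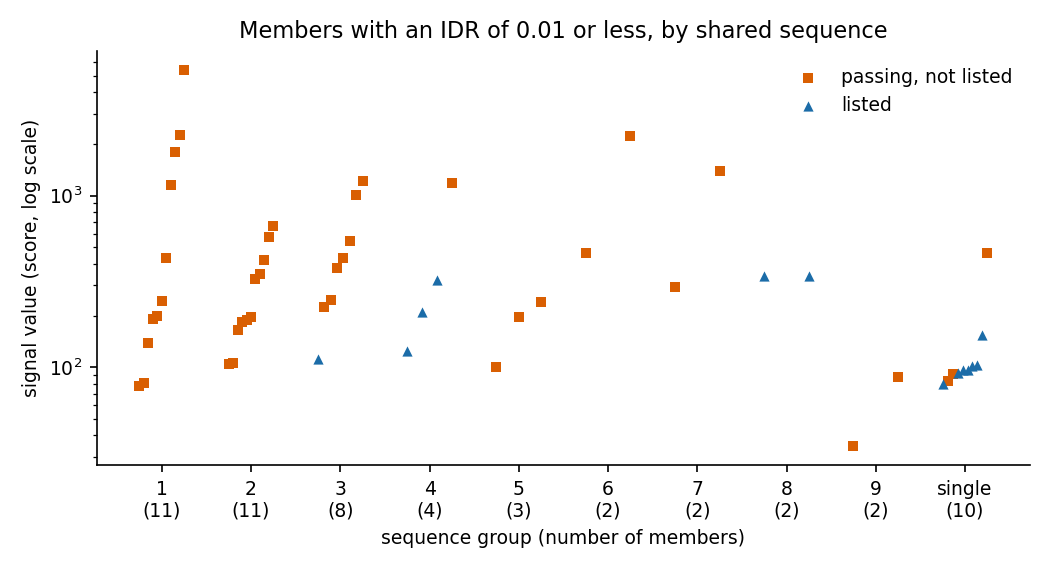
Signal value (y axis, log scale) of the 55 passing X regions by sequence group (x axis; groups numbered by size, with the number of regions in parentheses, and the last column holding the 10 that share no group). Squares are regions not listed and triangles are listed ones. Groups 1 and 2 hold no listed region, group 3 holds 1 of 8, group 4 holds 3 of 4, and both regions of group 8 are listed.

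The next group held both listed and unlisted regions, all 4 of them passing. They share the word CGTGTAAC, also chosen after the sequences were seen, and their most copied word occurs 669 times in the genome. The 3 listed members are chrX:12502710-12502857, chrX:1195335-1195451 and chrX:14154394-14154653, with signals of 322, 209 and 124. The unlisted member, chrX:3007334-3007668, was stronger than all of them at 1191, with 111.6 in replicate 1 and 1076 in replicate 2. The 3 listed members were on replicate 2's thresholded list and not on that of replicate 1. The first had 41.8 in replicate 1 and 286 in replicate 2, and the other two had no overlapping candidate in replicate 1 and 201 and 115.4 in replicate 2. The first lies 556 bp downstream of the start site of sdz-19, beyond the 3' end of that gene. The gene is named as a zygotic transcript that depends on the transcription factor SKN-1. The word occurs in 0.596% of the 1006 regions, 0.549% of the autosomal candidates and 0.274% of X windows. The unlisted array at chrX:15810954-15811152, placed in another group, also holds it, and its most copied word likewise occurs 669 times. A pair of stretches is shown so that the copies can be compared, with the word in capitals.
chrX:12502710-12502857, minus strand: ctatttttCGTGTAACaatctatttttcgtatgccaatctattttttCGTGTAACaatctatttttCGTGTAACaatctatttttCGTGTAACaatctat
chrX:1195335-1195451, plus strand: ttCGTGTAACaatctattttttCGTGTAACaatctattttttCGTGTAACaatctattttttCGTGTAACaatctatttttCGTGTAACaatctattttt

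The strongest listed regions were a pair with the same 40 bp unit, and they were the 2 regions listed in both replicates. The region at chrX:1375139-1375398 had a signal of 340, with 226 in replicate 1 and 127 in replicate 2. Its counterpart, chrX:2057930-2058082, also had 340, with 231 and 100. Replicate 1 was the higher for both, in contrast to the unlisted passing regions. Each window holds 6 copies of TTCTAGAA, an inverted repeat of the kind known from heat shock elements, the sites of heat shock factor HSF-1. Another listed region, chrX:443524-443783, also holds 6 copies and also repeats at 40 bp, although it shares too few words to join the pair. It had a signal of 95.8, with 67.6 in replicate 1, where it was listed, and 36.9 in replicate 2, where it was not. The word, chosen after the sequences were seen, is in 3 of the 13 listed regions, 0 of the 42 unlisted passing ones, 1.79% of all 1006, 2.30% of the autosomal candidates and 1.43% of X windows. A match of these letters is a description of the sequence and shows no binding by HSF-1.
chrX:1375139-1375398, plus strand: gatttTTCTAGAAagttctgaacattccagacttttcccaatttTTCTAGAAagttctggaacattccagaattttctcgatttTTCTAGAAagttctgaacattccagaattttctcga
chrX:2057930-2058082, plus strand: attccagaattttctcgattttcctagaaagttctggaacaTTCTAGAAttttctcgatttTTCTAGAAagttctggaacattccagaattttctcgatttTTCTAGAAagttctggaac
chrX:443524-443783, plus strand: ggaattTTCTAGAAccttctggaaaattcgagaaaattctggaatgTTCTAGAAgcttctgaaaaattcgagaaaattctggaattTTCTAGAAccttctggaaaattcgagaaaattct

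Only 2 listed regions had a summit in a promoter, taken as 500 bp upstream to 100 bp inside a protein-coding start site, and these were also the only 2 with a repeat share of 0. The first, chrX:5841168-5841427, lies 294 bp upstream of puf-9 (WBGene00004245, X:5841592-5845987, plus strand), which encodes a Pumilio-family RNA-binding protein. Its signal was 96.1 and its IDR 0.00378. It had candidates in both replicates, at 56.6 and 28.6, and was listed in neither and not in the conservative list, so its listing rests on the larger pair of lists. The second, chrX:3347954-3348213, lies 307 bp upstream of ZK816.3 (WBGene00022826). Its signal was 101 and its IDR 0.00271, with 55.9 in replicate 1 and 47.6 in replicate 2, and it was listed in replicate 2 and in the conservative list. Each summit also lies inside a pair of short annotated non-coding RNA genes on opposite strands, W06B11.7 and W06B11.9 at puf-9 and ZK816.8 and ZK816.9 at the other. Both peaks are shown whole.
chrX:5841168-5841427, plus strand: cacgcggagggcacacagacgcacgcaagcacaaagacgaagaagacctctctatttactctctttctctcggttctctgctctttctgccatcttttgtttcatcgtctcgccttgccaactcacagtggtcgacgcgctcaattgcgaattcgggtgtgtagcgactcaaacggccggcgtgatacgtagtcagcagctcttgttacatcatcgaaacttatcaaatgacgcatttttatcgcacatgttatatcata
chrX:3347954-3348213, plus strand: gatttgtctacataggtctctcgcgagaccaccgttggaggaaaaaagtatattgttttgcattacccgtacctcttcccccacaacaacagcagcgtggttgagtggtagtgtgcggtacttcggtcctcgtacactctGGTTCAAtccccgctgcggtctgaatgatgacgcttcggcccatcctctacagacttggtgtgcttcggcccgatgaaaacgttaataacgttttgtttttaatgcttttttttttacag

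In the ZK816.3 peak the capitals mark GGTTCAA, a form of GGTTCNA, the opening letters of the B box, a promoter element that RNA polymerase III uses inside tRNA genes. The nearest annotated tRNA gene is 23338 bp away. GGTTCNA was added after this sequence was seen and is common: it occurs in 2 of the 13 listed regions (the other is chrX:443524-443783), 9.15% of the 1006, 9.68% of the autosomal candidates and 8.90% of X windows, beside 78.0% of the 200 X candidates near small RNA genes. The narrower GGTTCGA was in 2.68% of the 1006, 2.70% of the autosomal candidates, 58.5% of the 200 and 1.73% of X windows. It was in none of the 55 passing regions. Annotated tRNA pseudogenes, which the distance rule does not cover, lay within 500 bp of 5 regions, the strongest at F23G4.t1 with a signal of 54.4, and none passed.

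The remaining 5 listed regions were scattered. The region at chrX:1503866-1504125 had a signal of 154, a repeat share of 15.1% and 106 in replicate 1, where it was listed, against 53.5 in replicate 2, where it was not. It lies 135 bp from tts-1, a long non-coding RNA gene known for high levels in dauer larvae. It is also 1206 bp downstream of the start site of F09E10.1, beyond the 3' end of that gene. Another, chrX:16931814-16932073, with a signal of 102.7, was listed in replicate 1 (57.3) and not in replicate 2 (45.7). It lies inside C30E1.9 (WBGene00022951), an annotated non-coding RNA gene of 14770 bp. That gene held 9 of the 1006 regions, with signals from 44.1 to 102.7 and a median of 59.5, above the 41.3 of all regions, and 1 of the 9 passed.

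The 3 weakest listed regions were close to the IDR limit or rested on 1 replicate. Among them, chrX:14387819-14388078, with a signal of 92.2, had 34.8 in replicate 1 and 57.1 in replicate 2, where it was listed. The next is chrX:443524-443783, already described. The weakest, chrX:9325834-9326093, had a signal of 80.3, an IDR of 0.00955 and 40.5 and 39.0005 in the replicates, and neither replicate listed it. The fifth remaining region, chrX:2056936-2057195, is the 1 listed member of the third array group: it lies in the same locus as the 40 bp array at chrX:2057930-2058082, had a signal of 111.9 and had no candidate in replicate 1 and 97.8 in replicate 2. On the other side of the limit, the region 1033 bp downstream of the start site of T27A8.7, chrX:16056448-16056707, had a signal of 86.0 and an IDR of 0.0114. This region lies beyond the 3' end of the gene. It was not listed in the larger set but was in the conservative one, and it is 796 bp from the snoRNA gene T27A8.8.

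Replicates divided the passing regions that were found in both of them by direction. Among regions with a candidate in both replicates, replicate 2 gave the higher value for 29 of 29 unlisted passing regions, with a median ratio of 6.25 (range 1.13 to 14.6). For the 10 such listed regions it was the higher for 2, with a median ratio of 0.679. For the 351 that did not pass it was the higher for 76, with a median of 0.792. The lists share no scale, so the ratio has meaning only between these sets. It leaves out regions with a candidate in 1 replicate. The other 3 listed regions had one in replicate 2 only, as did 12 of the 42 unlisted passing ones. A further 1 of the 42 had no candidate in either replicate. Without replicate 2 or without replicate 1, 6 and 10 X regions were listed, 0.257% and 0.256% of the 2336 and 3899 candidates the rule finds in each replicate's list, beside 1.58% and 0.915% of all candidates there. The autosomal shares were 1.10% and 0.763%. The passing share in replicate 1 was 0.856% (0.524 to 1.32) on X, 1.53% (1.34 to 1.74) on the autosomes and 2.02% over all candidates. In replicate 2 it was 1.36% (1.02 to 1.77), 1.24% (1.10 to 1.40) and 1.48%.

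**Figure D3:**
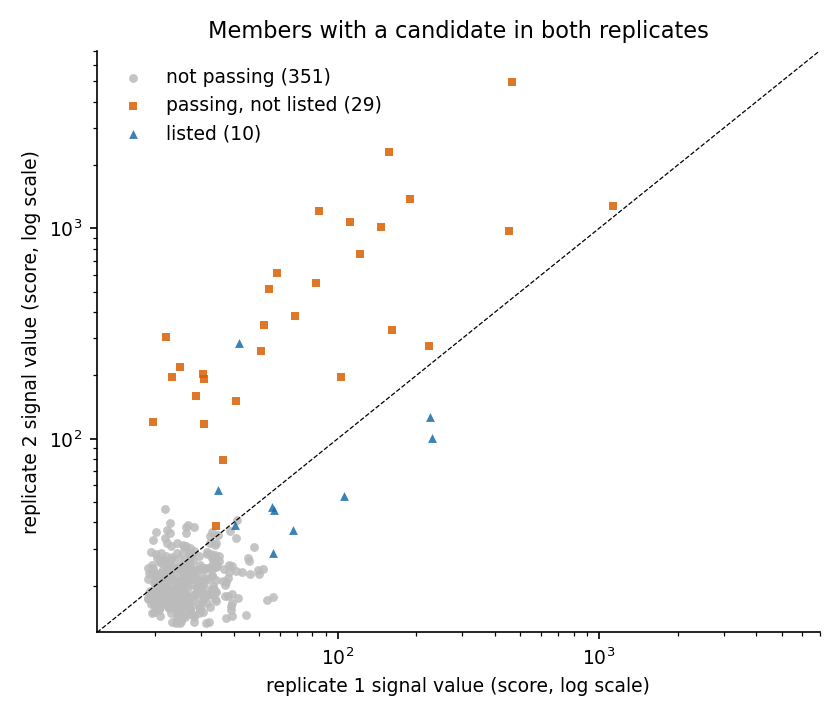
Signal value in replicate 1 (x axis) and replicate 2 (y axis), both on log scales, for the 390 X regions with a candidate in both replicates' lists. The dashed line marks equal scores. All 29 unlisted passing regions lie above the line, and 8 of the 10 listed regions lie below it.

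The listed regions on X were seldom shared between replicates, and the autosomal share lay within the X interval. Of the 13, 2 were listed in both replicates, 15.4% (1.92 to 45.4), 3 in replicate 1 only, 6 in replicate 2 only and 2 in neither. Of the 279 listed autosomal candidates, 82 were listed in both, 29.4% (24.1 to 35.1), and 75 in neither, 26.9%. In the conservative pair of lists 8 of the 13 were listed, 61.5%, and 203 of the 279 autosomal ones, 72.8%. There, 9 of 1402 X candidates were listed in all, 0.642% (0.294 to 1.22), against 2.40% (2.11 to 2.71) of autosomal candidates and 3.49% of all, and 29 passed, 2.07% (1.39 to 2.96) beside 3.16% (2.84 to 3.52) of autosomal candidates and 4.3% of all. The passing share on X was thus below the autosomal one in the conservative list and in replicate 1 and above it in the larger list and in replicate 2, and the intervals overlap in all of these but replicate 1. A candidate in both replicates, overlapping by at least 50% of the shorter region, was found for 390 of the 1006 regions, 38.8% (35.7 to 41.9), and in neither for 12.8%. For autosomal candidates these shares were 43.3% (42.2 to 44.4) and 13.8%. Across the 390 regions, which share libraries and depth, Spearman's rank correlation of the replicates' signals was 0.30. It was 0.10 over the 299 of them with a repeat share of 0, and 0.33 over 3396 autosomal candidates.

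Beyond the passing regions, the chromosome held fewer candidates than any autosome. There were 56.8 per Mb on X and 94.96 per Mb on the autosomes, where single chromosomes ranged from 77.9 to 114. The ratio of X to autosomes was 0.598 in the larger list, 0.626 in the conservative list, 0.719 in replicate 1 and 0.810 in replicate 2. There were 154 protein-coding genes per Mb on X and 209 on the autosomes. Per 1000 protein-coding genes, promoters held 52.4 candidates on X and 104 on the autosomes, a ratio of 0.502, and the ratio was 0.530, 0.620 and 0.802 in the other 3 lists in the same order. X was lower in all 4 lists. Fewer candidates on X and lower enrichment over the same background cannot be told apart in these lists.

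**Figure D4:**
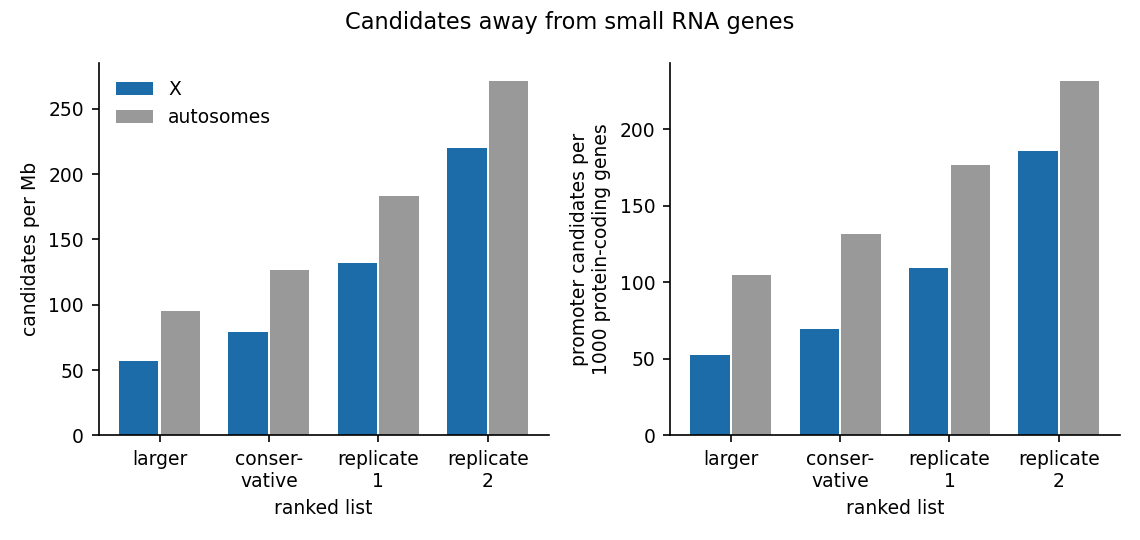
Candidates over 500 bp from small RNA genes, per Mb (left panel) and in promoters per 1000 protein-coding genes (right panel), for X and the autosomes in the 4 ranked lists (x axis). In the larger list the X bars stand at 56.8 per Mb and 52.4 per 1000 genes, and the autosomal bars at 94.96 and 104.

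By percentage points of candidates, position classes differed from the autosomal ones most in promoters and between genes. Promoters held 143 of the 1006 X regions, 14.2% (12.1 to 16.5), and 22.96% (22.03 to 23.9) of the autosomal candidates. Intergenic sequence held 339, 33.7% (30.8 to 36.7), and 23.4% on the autosomes. Coding exons held nearly the same share, 226 regions or 22.5% (19.9 to 25.17) and 22.7%, and introns 219, 21.8% and 24.2%. In 3' UTRs there were 30, 2.98% (2.02 to 4.23), and 5.04% (4.57 to 5.55) on the autosomes. The share of bases differs too: promoters take 11.6% of the eligible bases of X and 14.7% of those of the autosomes, and intergenic sequence 36.3% and 27.5%. Per Mb of promoter sequence there were 70.9 regions on X and 150 on the autosomes, and per Mb of coding exon 71.1 and 96.1. By this measure the widest gap was in 3' UTRs, with 53.7 per Mb on X and 183 on the autosomes. On X, promoter and coding exon sequence thus had nearly the same density of candidates, while on the autosomes promoters had the higher one.

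**Figure D5:**
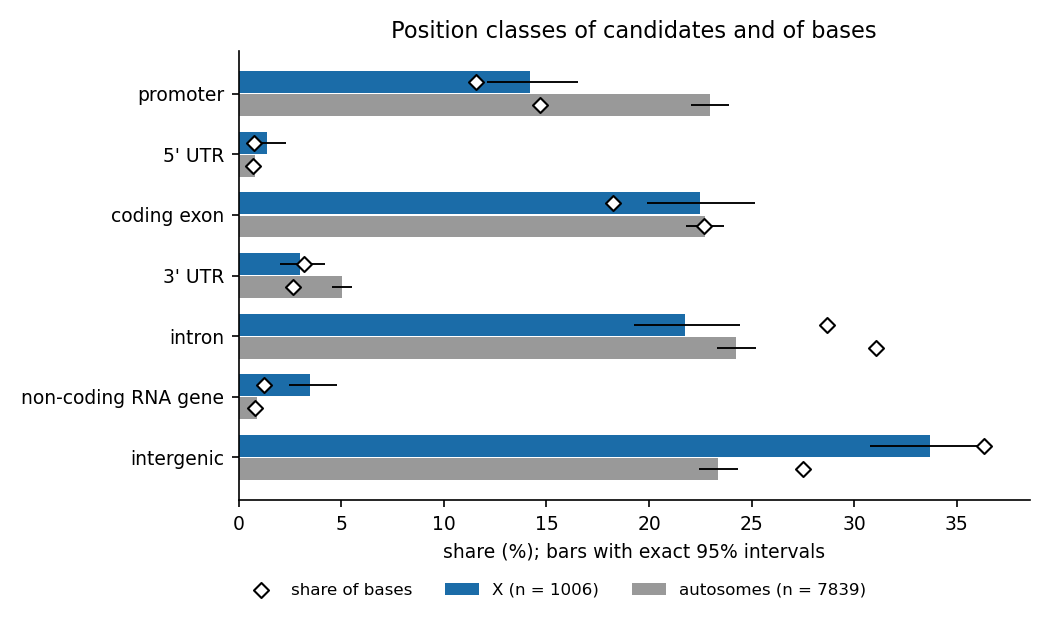
Share of candidates in each position class (bars, with exact 95% intervals) for X and the autosomes, with the share of eligible bases in the class as diamonds. On X the promoter bar is at 14.2% beside 11.6% of bases, and on the autosomes at 22.96% beside 14.7%.

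Promoter regions on X were also weak. Their median signal was 40.6 and their highest 101, where autosomal promoter candidates had a median of 44.0 and a highest value of 500. Of the 143, 2 were listed, 1.40% (0.170 to 4.96), beside 6.94% of 1800 on the autosomes (5.81 to 8.22). Promoters of genes on both strands at once held 1 of the 143, 0.699% (0.0177 to 3.83), and 261 of the 1800, 14.5% (12.9 to 16.2). Such positions make up 1.60% of the promoter bases of X and 5.76% of those of the autosomes. After the 2 listed ones, the strongest promoter regions were at unc-115 (63.2), an actin-binding protein of axon growth, ref-2 (63.1), a zinc-finger transcription factor, and C05D9.4 (60.6). None of these passed: their IDRs were 0.0928, 0.0613 and 0.671.

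Non-coding RNA genes held 35 regions, 3.48% (2.44 to 4.81), beside 0.880% of autosomal candidates. They take 1.24% of X bases and 0.776% of autosomal bases. The median signal of the 35 was 45.1, and that of intergenic regions 43.6. The gene C30E1.9 alone held 9 of the 35, and the other 26 had a median of 42.6, a value worked out after the data were seen. Within 500 bp of the summit, a gene annotated as ncRNA was found for 127 regions, 12.6% (10.6 to 14.8), and for 7.003% of autosomal candidates. Of the 13 listed regions 4 were so placed, the 2 promoter ones and those at tts-1 and C30E1.9. MicroRNA genes lay within 500 bp of 10 regions, 0.994% (0.478 to 1.82), and of 0.370% of autosomal candidates. The strongest were 105 bp from cel-mir-1829b in an intron of F20D1.3, with a signal of 76.6 (50.2 and 22.7 in the replicates), and 183 bp from cel-mir-54 in an intron of F09A5.3, with 71.4 (49.4 and 23.7). Of the others, 2 lay by cel-mir-56, from the same cluster as cel-mir-54, and none of the 10 passed. Genes of piRNAs lay near 12 regions, 1.19%, and near 3.07% of autosomal candidates. The share of bases within 500 bp of ncRNA, microRNA or piRNA genes was not worked out. These differences between X and autosomes therefore cannot be read as traits of the candidates.

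Along the chromosome the regions were spread rather evenly and the passing ones were not. In successive stretches of 2 Mb, with a shorter last one, there were from 89 to 135 regions, or 44.5 to 67.5 per Mb. The stretches of 0 to 2 Mb and 10 to 12 Mb each held 14 passing regions, and the other 7 held from 1 to 7. Of the 14 in the first, 4 were listed, and of the 14 in the second, none. The 14 in the second lay in loci of 8, 3 and 3 regions. Those same 2 stretches had the highest shares of repeated regions, 16.3% and 13.4%. These shares are no separate observation, because they count passing regions too, and 47 of the 55 passing regions are repeated.

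The letters CGCGCAGGG, the core of the word known to be enriched at recruitment sites of the dosage compensation complex, were found within 130 bp of the summit of 6 regions, 0.596% (0.219 to 1.29). They were in 0.0427% of X windows of the same length (29 of 67888) and in 1 of 7839 autosomal candidates. The X chromosome holds 33 copies of these letters in all, 1.86 per Mb, and the autosomes 44, which is 0.533 per Mb. The word is thus rarer on the autosomes to begin with. Of the 33 copies on X, 8 lay in the 6 regions. None of the 6 passed. The strongest, chrX:11094071-11094330, holds a pair of copies and had a signal of 64.7 and an IDR of 0.103, with 36.8 in replicate 1 and 24.1 in replicate 2. The second, chrX:6296374-6296633, lies in an intron of mom-1, a porcupine-family gene of Wnt secretion, and had 58.1, with 37.2 and 17.96. A further region, chrX:8810999-8811258, in the promoter of R04E5.9, had 51.2 and no candidate in replicate 2. The other three, one of them by the insulin-like gene ins-39, had 48.5, 39.05 and 37.7. The following are 5 of the 8 copies, the first pair from the same region, with 10 bases on each side and the core in capitals.
chrX:11094071-11094330, minus strand: cgttttatatCGCGCAGGGagcttatgca
chrX:11094071-11094330, minus strand: gggaaccattCGCGCAGGGacacctcact
chrX:6296374-6296633, plus strand: agataggtatCGCGCAGGGaagatttacc
chrX:8810999-8811258, minus strand: gaacacgcgaCGCGCAGGGagagggacgc
chrX:806645-806904, plus strand: gtgcgattatCGCGCAGGGgtgtttgttg

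Of the other motifs searched on both strands, CACGTG, the E box, was in 4.08% of the regions, 5.08% of the autosomal candidates and 3.42% of X windows. GAGAGAGA was in 2.19%, 2.62% and 1.43%. TGATAA, the form of GATA site used by intestinal factors, was in 18.4%, 18.8% and 24.0%. TTTCCCGCC, an E2F site, was in 0.398%, 0.651% and 0.326%. TATAAAA was in 8.85%, 11.6% and 15.6%.

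By gene, 475 of 2731 protein-coding genes on X, 17.4%, had a region assigned by the nearest start site within 2000 bp, beside 23.7% of autosomal genes. Of these 475, 8 had a passing region and 4 a listed one. No start site was within that reach for 410 of the 1006 regions, 40.8% (37.7 to 43.9), 36 of the 42 unlisted passing ones and 9 of the 13 listed ones. The 4 genes with a listed region are sdz-19, F09E10.1, ZK816.3 and puf-9.

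None of 19 lists of X genes of known function held a gene with a passing or listed region. Over all 2731 X genes only 8 had a passing region and 4 a listed one. Absence from lists this short therefore says little about these functions. Of 6 genes of dosage compensation and X signal counting, 3 had a region: the strongest were sdc-2, which directs the complex to X in hermaphrodites, with a signal of 59.3 in a coding exon, and xol-1, the switch gene that is on in males, with 45.4. Their IDRs were 0.115 and 0.367. The only gene of the DNA replication and cell cycle list on X, cdk-4, a kinase of the G1 phase, had a promoter region with 54.2 (IDR 0.163), seen in replicate 1 (44.6) and not in replicate 2. Among 5 vitellogenin genes, which encode yolk proteins made in the adult intestine, only vit-2 had a region, with 47.9. Neuron function genes had 8 of 24, the highest being unc-6, the netrin axon guidance cue, with 44.9. Ras and Wnt signalling genes had 2 of 9, lin-18, a Ryk-type Wnt receptor, with 50.5, and egl-15, the FGF receptor.

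The other families are given by counts alone, many of them small. Homeobox genes had 5 of 22, neuropeptides and insulins 7 of 34, nuclear hormone receptors 3 of 23, and solute and ABC transporters 5 of 24, beside the 17.4% of all X genes. Cuticle collagens had 1 of 27, chemoreceptors 2 of 33, ligand-gated channels 1 of 24, potassium channels 2 of 15, muscle structure genes 1 of 10, intestine regulators 1 of 4 and histones 1 of 5. Heterochronic genes (5), hypodermis regulators (2) and ribosomal protein genes (2) had none. The highest signal in these families was 62.3 (IDR 0.0764) at the solute carrier gene slc-25A18.1, and the highest among nuclear hormone receptor genes was 55.1 (IDR 0.251) at nhr-120.

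The strongest unlisted regions with a repeat share of 0, after T27A8.7, were at F02E8.4 (77.8, IDR 0.594), F20D1.3 and ain-1 (71.5, IDR 0.141), which encodes a GW182-type partner of microRNA Argonautes. All 3 had candidates in both replicates. At F02E8.4 the replicates had 47.7 and 30.7, and at ain-1 34.8 and 34.8. Of the regions that did not pass, 4 were listed elsewhere: T27A8.7 in the conservative list, a region in an intron of M02E1.1 in replicate 1 (60.9 there, 69.5 in the larger list), and 2 in replicate 2, at chrX:2055366-2055625 (57.9) and near arrd-24 (50.4).

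The distance limit cut through no listed region. The candidates just within 500 bp lay 492, 481 and 448 bp from a tRNA gene, with signals of 45.9, 38.4 and 36.5. Those just beyond lay at 507, 560 and 560 bp, with 35.6, 53.6 and 47.0, the second of these in an intron of stn-2. None of the 6 passed.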

How the data were processed

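The series holds 2 biological replicates of 1 group, per the labels, and 8 deposited peak lists on assembly ce11, per the read-me texts the authors deposited. A ranked and a thresholded list exist for each replicate and for a larger and a conservative combination of both. The names of aligner and peak caller were not given in the sources used here. Each signal value is a score from the authors' peak caller, used only within 1 list. A second deposited score is 125 times the negative log2 of the IDR, capped at 1000. The authors' −log10 of the global IDR is capped at 5. Summits are deposited as offsets in bp. The p-value column holds -1 and, with 8 unnamed columns, was not used.

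Genes came from Ensembl release 115 and sequence from the NCBI copy of the same assembly. A summit took the first class that applied of promoter, either UTR or coding exon (in 5' to 3' order), intron, gene of a non-coding RNA, or intergenic. Eligible bases are those over 500 bp from a small RNA gene. Regions in different lists were matched at 50% overlap of the shorter. Shares have exact 95% intervals, and no test was run, since there is 1 group and regions are not replicates. Named genes are those of the listed regions, of the 5 strongest unlisted and passing unlisted regions, of the regions nearest the 500 bp limit, and the listed or else the 2 strongest members of each gene list. Further regions were named after their values were seen: the strongest in promoters and in unique sequence, those near microRNA genes or with a dosage compensation word, and those listed elsewhere. The members, the 19 gene lists and the 7 first motifs were chosen with earlier results of these data known, and 4 motifs after the sequences were seen. The code was tested on simulated data with known positions. Python 3.11.15, numpy 2.4.6, pandas 2.3.3 and scipy 1.17.1 were used.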

Additional observations from a re-analysis of the deposited data

How the results depend on the processing

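Of 50 alternative values, 36 stayed within the interval of the reported one, or within 1.5 times it for counts. The listed share of 1.29% became 0.642% in the conservative lists, 0.256% to 0.257% when either replicate was left out, 5.47% with every region at an IDR of 0.01 or less, and 0.242% in sequence with a repeat share of 0, an alternative chosen after seeing the data. The number listed, 13, became 6 to 10 without a replicate, 8 at an IDR of 0.001, 55 for all passing regions and 2 at a repeat share of 0. The promoter share of the listed, 15.4%, ranged from 0% to 10% without a replicate and was 0% at an IDR of 0.001 and 100% at a repeat share of 0, where 2 regions remain. The coding exon share of 22.5% became 26.8% at a repeat share of 0. The share with a candidate in both replicates, 38.8%, became 42.5% with an overlap of 1 bp. The cause of these shifts was not tested. No paired analysis was possible because the study has 1 group. Read depth is unknown, so the lists cannot show whether a weak region is absent.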
